A study of Danio rerio with 2 samples.

Results

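Paraxial mesoderm progenitors were taken as the barcodes with at least 2 summed UMIs (unique molecular identifiers, counted RNA molecules) of msgn1, mespaa and mespab. Barcodes with 3 or more sox32 UMIs (an endoderm determinant), any gsc UMI (a dorsal organizer gene) or 10 or more summed UMIs of the keratins krt4, krt5, cyt1 and cyt1l (the outer enveloping layer) were left out. The rule chose 1823 of 16773 barcodes, of which 890 of 7911 came from the MZwnt11/slb library and 933 of 8862 from the wild-type library. Both libraries held dissociated whole zebrafish embryos at shield stage, the onset of gastrulation. The first came from embryos lacking maternal and zygotic wnt11f2 function (the slb locus, allele tx226), and the other from wild-type embryos of the A2B2 strain. No treatment was given to either group, every cell type of the embryo carried the genotype, and the number of embryos pooled per library was not given in the sources used here. With 1 library per genotype, a difference between the genotypes cannot be told apart from a difference between the libraries, and no test between them was possible. The 95% intervals below are exact and cover counting error only.

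Paraxial mesoderm forms from cells of the blastoderm margin that turn inward during gastrulation, and it later gives rise to the somites and so to muscle, vertebrae and dermis. Nodal, FGF and Wnt ligands at the margin switch on T-box transcription factors, and these switch on msgn1, a bHLH factor that drives cells out of the progenitor state into presomitic mesoderm. The mesp genes encode related bHLH factors that are first active at the margin and later set segment boundaries in the anterior presomitic mesoderm.

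The members made up 11.25% of barcodes in MZwnt11/slb (95% Clopper-Pearson interval 10.6 to 12.0%) and 10.5% in wild type (9.90 to 11.2%), and these intervals overlapped. That closeness depended on the exclusions, without which the shares were 16.4% and 14.1%. Of barcodes with at least 2 UMIs of the selecting genes, they removed 31.4% in MZwnt11/slb (28.9 to 34.0%). In wild type they removed 25.3% (22.9 to 27.8%). Libraries differed in depth, with a median of 4609 UMIs per member in MZwnt11/slb against 3858 in wild type, and the members were as deep as the other barcodes of their own library (medians of 4593 and 3876). Barcodes were also thinned to 2944 UMIs, and those below that depth were left out, 115 members and 940 other barcodes in MZwnt11/slb and 252 and 1963 in wild type. With the rule applied again to the thinned counts, the shares were 11.1% in MZwnt11/slb and 9.85% in wild type. In all, 16 barcode sequences occurred in both libraries, and none of them was a member in both.

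The selecting genes are described here without a test, since they chose the members. msgn1 stood at 1917 CPM (UMIs of a gene summed over the members and scaled to a total of 1000000) in MZwnt11/slb and at 1878 CPM in wild type, with a UMI in 854 of 890 and in 882 of 933 members. mespab stood at 377 CPM in MZwnt11/slb and 465 CPM in wild type, with a UMI in 680 and 698 members. mespaa stood at 92.7 CPM in MZwnt11/slb and 383 CPM in wild type, with a UMI in 261 and 599 members. Most members held msgn1 together with a mesp gene, 693 (77.9%) in MZwnt11/slb and 766 (82.1%) in wild type. msgn1 without a mesp UMI was found in 161 members (18.1%, 15.6 to 20.8%) in MZwnt11/slb and in 116 (12.4%, 10.4 to 14.7%) in wild type. A mesp gene without msgn1 was found in 36 and 51 members.

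Of the barcodes that reached 2 UMIs of the selecting genes, 407 of 1297 in MZwnt11/slb and 316 of 1249 in wild type were left out by the exclusions. sox32 removed most of them, 289 in MZwnt11/slb and 217 in wild type, so that many barcodes with paraxial genes also carried the endoderm determinant. gsc removed 108 and 68, and the keratins 67 and 57, where 1 barcode could meet several exclusions. The cutoff of 2 UMIs fell on a graded change. Barcodes with exactly 1 UMI, just outside the rule, held pcdh8 at 46.9 CPM in MZwnt11/slb and 52.8 CPM in wild type. Those with exactly 2, just inside, held it at 150 and 179 CPM.

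The label was set beside genes that the rule did not use. The lists were chosen with earlier results of these data known, so the values describe the members and are not an independent check. Of 17 genes on a paraxial mesoderm list, 8 had at least 100 UMIs in the members of both libraries together, and 7 of these were at least 2-fold higher in members than in other barcodes in both libraries. Over all 6111 genes at that minimum, leaving out the selecting and excluding genes, 150 (2.45%) were that much higher and 96 (1.57%) that much lower. The median log2 ratio of members over other barcodes for the list was 2.71 in MZwnt11/slb and 3.07 in wild type, beside 0.04 and 0.00 for all 6111 genes. The exception was vgll4l, a cofactor of TEAD factors, at -0.47 and -0.82. The other 9 list genes were rare. mespba, a further segmentation gene, had 19 UMIs in MZwnt11/slb members and 31 in wild-type members, and myf5, an early muscle determinant, had 17 and 18. meox1, tcf15 and myod1, which mark somites and muscle, had 0 to 2 UMIs in the members of either library.

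The T-box genes were among the best covered. tbx16, which directs mesodermal cells toward the paraxial fate, was at 3035 CPM in members and 993 CPM in other barcodes of MZwnt11/slb, and at 4393 and 1538 CPM in wild type, log2 ratios of 1.61 and 1.51. tbxta, needed for notochord and posterior mesoderm, was higher by 2.19 in MZwnt11/slb (2.15 to 2.24) and 2.41 in wild type (2.36 to 2.46). The related tbx16l was far more restricted, with log2 ratios of 3.96 (3.72 to 4.20) and 4.27 (4.07 to 4.47). Repressors that act with T-box factors were also enriched. ripply2 was at 13.6 CPM in members against 0.51 CPM elsewhere in MZwnt11/slb and at 19.4 against 0.63 CPM in wild type, while ripply1 was higher by 1.40 and 2.46. foxc1a, a forkhead gene needed for anterior somites, was higher by 4.19 and 4.59, and pcdh8, a protocadherin of cells in convergence movements, by 3.23 and 3.69.

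**Figure D1:**
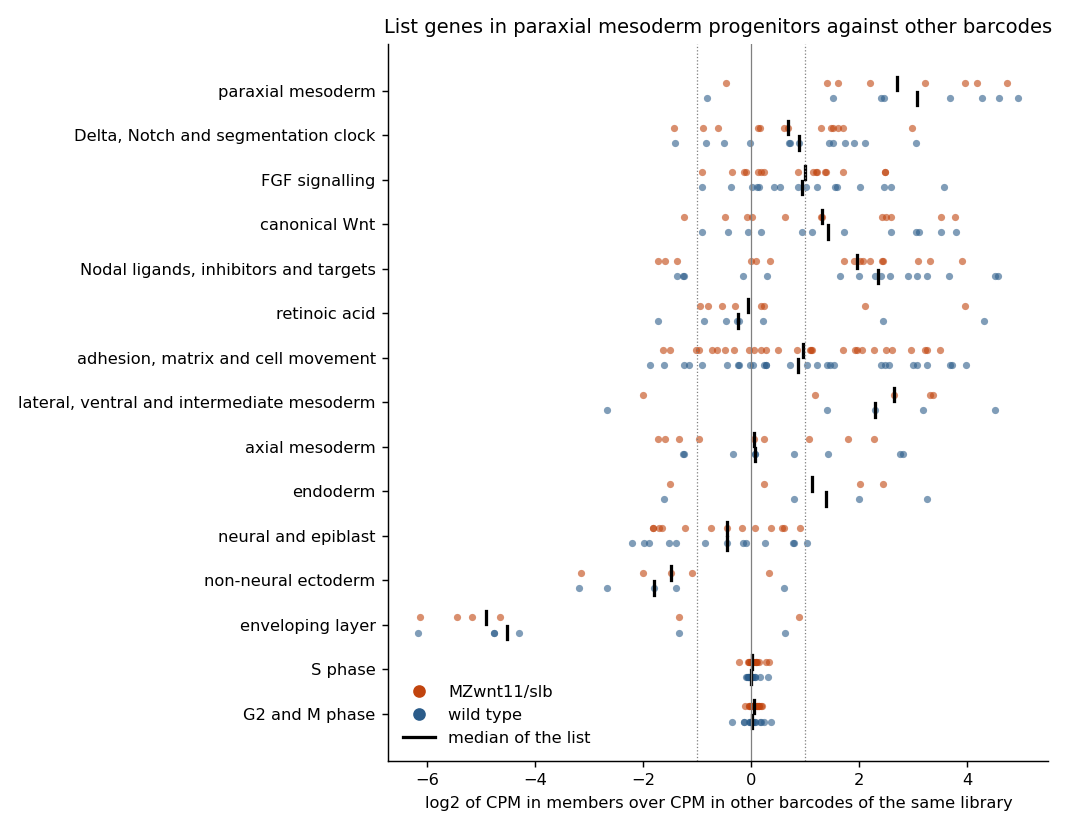
Each point is 1 gene with at least 100 UMIs in members, placed by the log2 ratio of its CPM in members over other barcodes of the same library (x axis), for 15 of the gene lists (y axis), with MZwnt11/slb above wild type and black bars for list medians. Dotted lines mark 2-fold; the paraxial list lies to the right at medians of 2.71 and 3.07, the enveloping layer list far to the left, and the cell cycle lists at 0.

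The 15 genes with the highest ratios included tbx16l, ripply2, foxc1a and pcdh8 of that list, and the other 11 identifiers follow. six4a, a homeobox gene, was higher in members by log2 ratios of 4.23 in MZwnt11/slb and 4.78 in wild type. aldh1a2, the enzyme that makes retinoic acid, was at 286 CPM in members and 18.3 CPM in other barcodes of MZwnt11/slb, and at 250 and 12.6 CPM in wild type. aplnrb, a receptor for the peptide Apela that guides mesendodermal cells, was at 553 against 48.8 CPM and at 698 against 53.1 CPM. osr1, a zinc finger gene of intermediate mesoderm, was higher by 3.32 in MZwnt11/slb and by 4.51 in wild type. The others were the Nodal antagonist lft1 (3.91 and 4.57), the zinc finger gene zic2a (3.11 and 3.72), the mesendodermal homeobox gene mixl1 (3.09 and 3.66), the unnamed FP102169.1 (3.89 and 3.92) and pnhd, so named in the gene name table, which encodes a secreted protein (3.09 and 3.21). The Wnt ligand gene wnt8a appeared under 2 identifiers, both higher in members, at 3.78 and 3.52 in MZwnt11/slb and at 3.79 and 3.52 in wild type.

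Signalling genes were enriched selectively. Of 13 genes of Delta, Notch and the segmentation clock, 6 were at least 2-fold higher in members and 1 was lower. Lists shared some genes, and tbx16 of the paraxial list was among these 6. tbxta was also on the Nodal list, and pcdh8 on the adhesion list. The clock repressor her1 led with 2.98 in MZwnt11/slb and 3.06 in wild type, followed among the ligands by dld with 1.70 and 2.11, whereas lfng, a modifier of Notch, was lower by 1.43 and 1.42 on the log2 scale. Of 16 FGF genes 8 were higher, among them the ligands fgf17 (2.49 and 2.47) and fgf3 (2.49 and 3.57) and the inhibitor spry4 (1.37 and 2.01). The receptor fgfr4 was at -0.90 and -0.91. Of 12 canonical Wnt genes, with wnt8a counted under both identifiers, 7 were higher, led after wnt8a by nkd1, a feedback inhibitor (2.60 and 3.05). The target gene sp5a was at 225 CPM in members and 39.7 CPM in other barcodes of MZwnt11/slb, and at 244 and 28.1 CPM in wild type.

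Of 16 Nodal genes 10 were higher in members and 3 were lower. The ligand genes ndr1 (1.91 and 2.57) and ndr2 (2.06 and 3.07) were higher, as were the target sebox (2.42 and 2.90) and fscn1a, an actin bundler (1.72 and 2.30). The lower ones included the organizer gene chrd, at -1.59 in MZwnt11/slb and -1.26 in wild type. Among other barcodes that also passed the exclusions, the wild-type value for chrd turned to 0.25. In the retinoic acid list, aldh1a2 and rdh10a, which makes its substrate (2.11 and 2.44), were the 2 of 8 genes that passed 2-fold.

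Of 28 adhesion, matrix and movement genes, 13 were higher in members and 3 lower. snai1a, a repressor of epithelial genes, was at 711 CPM in members and 172 CPM in other barcodes of MZwnt11/slb, and at 974 and 166 CPM in wild type. The membrane ligand efnb2a was higher by 2.49 and 3.07 and the chemokine gene cxcl12b by 3.26 and 3.00. cdh2, N-cadherin, was higher by 1.13 and 1.53, beside -0.63 and -0.92 for cdh1, E-cadherin. The chemokine receptor genes cxcr4a (-1.50 and -1.61) and cxcr4b (-1.63 and -1.88) were both lower, so that the ligand was high where the receptors were low.

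The remaining mesodermal and endodermal lists each held higher and lower genes. Of 17 measured lateral, ventral and intermediate mesoderm genes, 5 had at least 100 UMIs in members. That minimum applied to every list and leaves out genes that are low in members. Of these 5 genes 4 were higher in members and gata2a was lower. The higher ones included the homeobox gene lhx1a (2.65 and 3.19) and drl, an early blood and heart lineage gene (3.38 and 2.29). The medians of this list were 2.65 in MZwnt11/slb and 2.29 in wild type, beside 2.71 and 3.07 for the paraxial list. Among genes that met the minimum, high ratios were thus also found outside the paraxial list. Of 9 axial genes 3 were higher and 2 lower, with the forkhead gene foxa at 2.28 and 2.82 and noto, a notochord gene, at -1.73 and -1.24. Of 4 endoderm genes gata5 (2.45 and 3.27) and gata6 were higher and cxcr4a was lower. Of 13 BMP genes the ventral repressor vent was higher (1.74 and 1.60) and chrd lower. The rule left out gsc barcodes, which held 6069 chrd UMIs in MZwnt11/slb and 2534 in wild type. Members held 452 and 205, so the lower chrd is partly set by the rule. Of 12 non-canonical Wnt genes wnt11f2 and prickle1b were higher and celsr1a lower. No gene of the yolk syncytial layer (2) or of the p53 and stress lists (10) passed 2-fold in both libraries, and 1 of 7 germ cell genes, nanos3, was lower (-1.71 and -1.72).

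Markers of other cell types were low but not absent. Of 13 neural and epiblast genes 5 were at least 2-fold lower in both libraries, with sox3 at -1.83 and -2.20 and sox2 at -1.71 and -1.90, and none was that much higher. Of 5 non-neural ectoderm genes 4 were lower, led by tfap2a at -3.16 and -3.19. The enveloping layer list had a median of -4.92 in MZwnt11/slb and -4.53 in wild type over 6 genes that the rule did not use, 5 of them past 2-fold. That gap came with the keratin exclusion, and among other barcodes that passed the same exclusions the medians were 0.20 and 0.25. All 13 list genes outside the rule, also those under the UMI minimum, summed to 573 CPM in MZwnt11/slb members and 991 CPM in wild-type members. Most of these sums was epcam, with 351 and 679 CPM, while krt8 was at 62.5 and 89.9 CPM. The 17 S phase genes (0.02 and 0.00) and the 17 genes of G2 and M phase (0.05 and 0.01) had medians at 0, and no cell cycle gene passed 2-fold in both libraries.

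Members were set against 3 neighbouring sets of barcodes: those with at least 3 sox32 UMIs, those with a gsc UMI, and those at the margin with at least 2 eve1 and cdx4 UMIs but under 2 of the selecting genes. Since sox32 and gsc were excluding genes, these values are descriptions. At least 2 UMIs of the selecting genes were found in 289 of 398 sox32 barcodes in MZwnt11/slb and 217 of 323 in wild type. For gsc barcodes this held for 108 of 403 and 68 of 226. Neither set had a keratin limit, and krt4 stood at 1314 and 1272 CPM in sox32 barcodes, against 92.7 and 93.0 CPM in members. aldh1a2 was higher in members than in sox32 barcodes by 1.91 in MZwnt11/slb (1.68 to 2.15) and 2.07 in wild type (1.75 to 2.41). tbx16l differed still more, by 2.86 and 2.55. In contrast efnb2a (-0.14 and -0.03) and snai1a (-0.09 and -0.09) were at nearly the same level in members and in sox32 barcodes. The cardiac and endodermal factor gata5 was lower in members than there, by 0.91 and 0.75 on the log2 scale.

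Against gsc barcodes, members held less dkk1b, a secreted Wnt inhibitor (-1.47 in MZwnt11/slb and -1.36 in wild type), and less foxa (-0.61 and -1.14). The ligand gene fgf17, higher in members than in all other barcodes, was also lower than in gsc barcodes. Its ratios were -0.52 in MZwnt11/slb (-0.92 to -0.12) and -0.69 in wild type (-1.25 to -0.10). pcdh8 was nearly as high in gsc barcodes, with ratios of 0.48 and 0.21. osr1 differed from gsc barcodes in only 1 of the libraries by more than its interval. In MZwnt11/slb members it was 0.16 above gsc barcodes (-0.04 to 0.37), and in wild-type members 1.11 above them (0.81 to 1.41). Against the eve1 and cdx4 barcodes, tbxta was only 0.42 and 0.48 higher in members, whereas gata5 (7.48 and 6.31), efnb2a (5.12 and 5.25) and foxc1a (5.53 and 5.80) were far higher. The eve1 and cdx4 barcodes held few UMIs of gata5 (5 and 14) and foxc1a (11 and 7), so the size of these ratios is uncertain. The intervals for gata5 were 6.25 to 9.11 in MZwnt11/slb and 5.56 to 7.19 in wild type. sox3 was lower in members by 1.57 and 2.09 on the log2 scale.

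**Figure D2:**
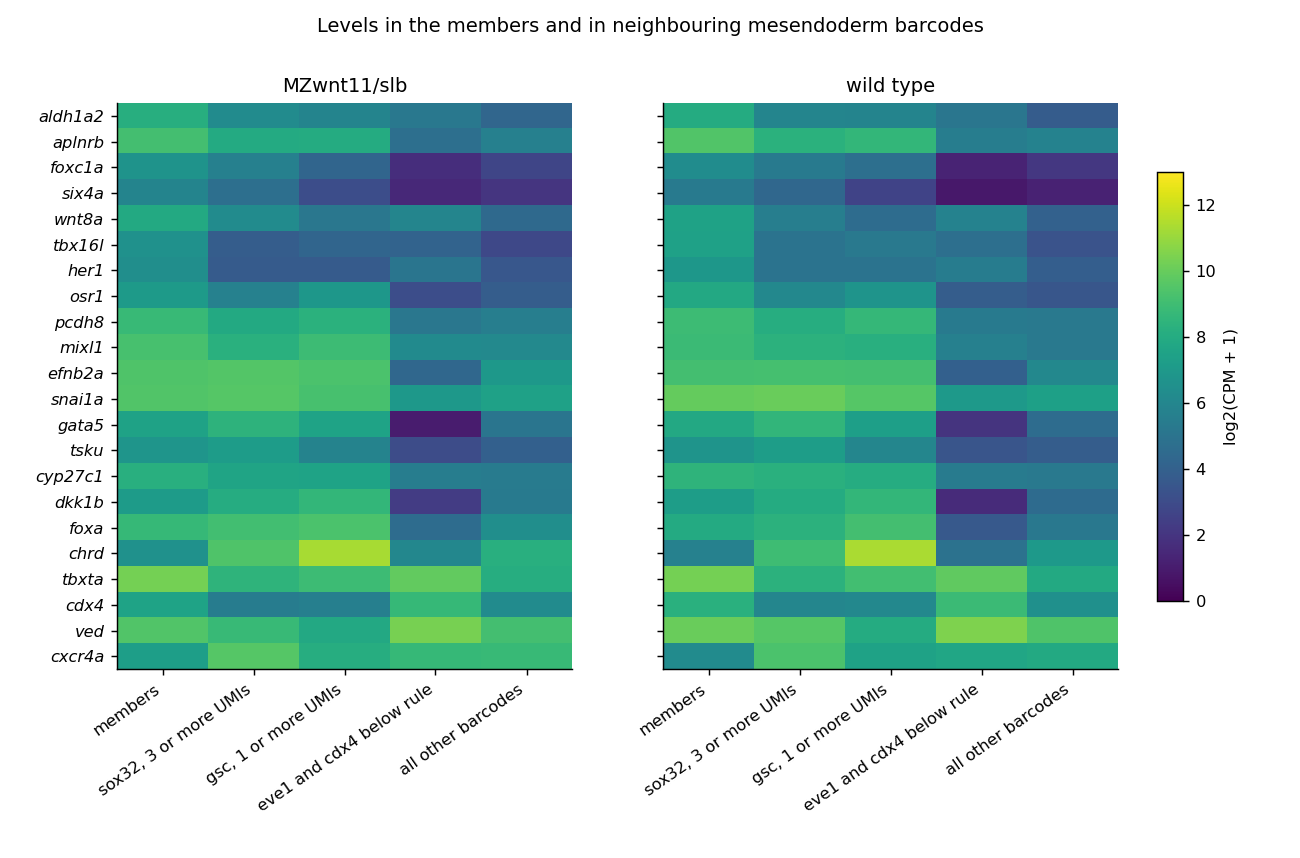
Colour gives log2(CPM + 1) of 22 genes (rows) in 5 sets of barcodes (columns) of MZwnt11/slb (left) and wild type (right); all other barcodes include the sox32, gsc and eve1 and cdx4 sets. aldh1a2, six4a and tbx16l are brightest in members, efnb2a and snai1a are as bright in the sox32 set, and chrd in the gsc set.

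The members were not uniform. Barcodes that passed the exclusions were placed in 7 bins by their summed UMIs of msgn1, mespaa and mespab, a count that also grows with a barcode's depth. aldh1a2 climbed with each bin, to 379 CPM in MZwnt11/slb and 376 CPM in wild type in the bin of 21 or more, against 121 and 126 CPM at exactly 2 UMIs. efnb2a was at 986 and 917 CPM in the top bin, against 58.8 and 105 CPM at 2 UMIs. tbx16 was already near its plateau at 3 to 5 UMIs, with 2946 CPM in MZwnt11/slb and 4412 CPM in wild type.

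tbxta, cdx4 and sox3 ran the other way, with lower levels in the top bin than at exactly 2 UMIs. At 0 UMIs, tbxta was at 234 CPM in MZwnt11/slb and 207 CPM in wild type, and cdx4 at 80.2 and 92.3 CPM. tbxta was at 1758 CPM in MZwnt11/slb and 1406 CPM in wild type at exactly 2 UMIs, and at 838 and 1085 CPM in the top bin. cdx4, a posterior homeobox gene, was at 426 and 487 CPM at exactly 2 UMIs. In the top bin it was at 83.0 CPM in MZwnt11/slb and 221 CPM in wild type. sox3 declined along the whole range in wild type, to 81.2 CPM in the top bin. In MZwnt11/slb it was lowest at 6 to 10 UMIs (135 CPM) and at 168 CPM in the top bin.

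**Figure D3:**
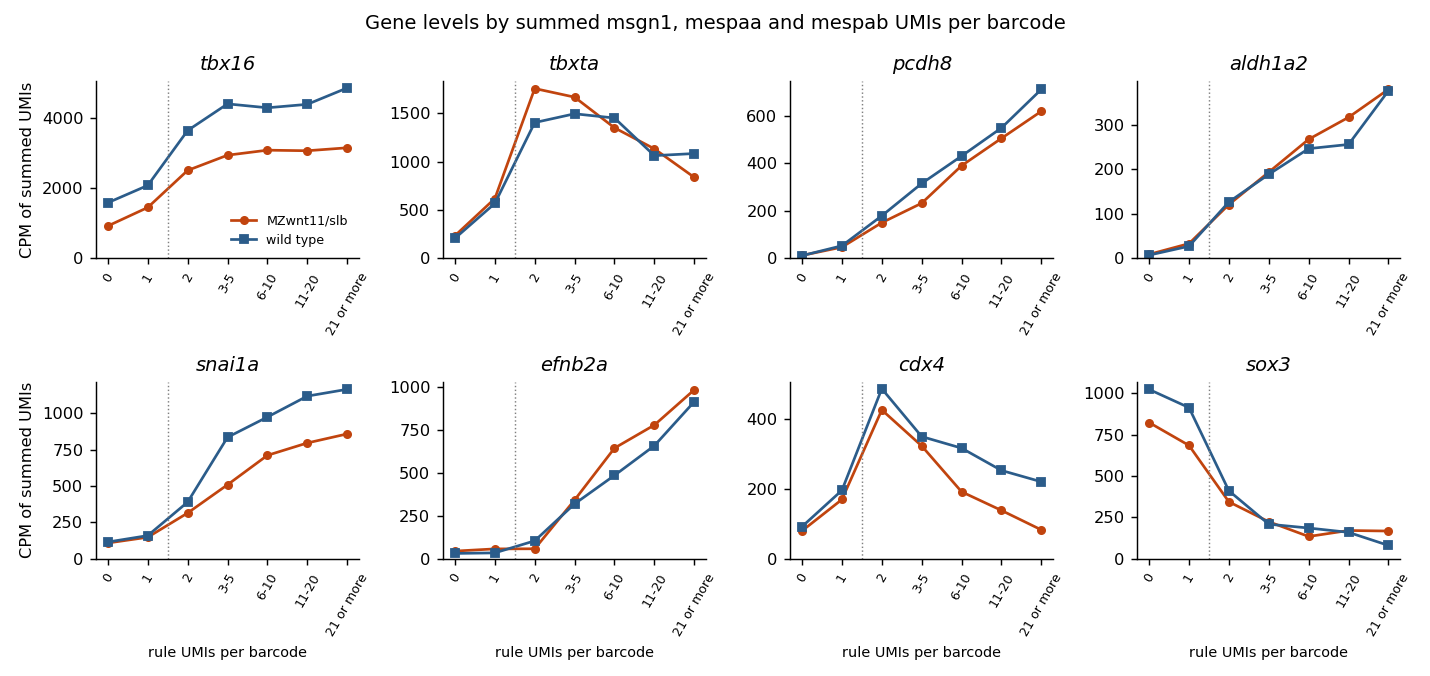
CPM of 8 genes (y axes, from 0) against the summed msgn1, mespaa and mespab UMIs per barcode (x axes), for MZwnt11/slb (circles) and wild type (squares); the dotted line is the cutoff of 2. pcdh8, aldh1a2, snai1a and efnb2a climb to the right of it, and tbxta and cdx4 peak at 2 to 5 and then decline.

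Members were then split by cdx4 and eve1, genes of the ventral and lateral margin from which trunk and tail form. A UMI of either was found in 536 members (60.2%, 56.9 to 63.5%) in MZwnt11/slb and in 621 (66.6%, 63.4 to 69.6%) in wild type. Members with such a UMI were deeper, with medians of 4940 against 4151 UMIs in MZwnt11/slb and 4089 against 3477 UMIs in wild type. The split was chosen after values were seen. Of 6109 other genes, 13 (0.213%) were at least 2-fold higher with cdx4 or eve1 in both libraries and 20 (0.327%) at least 2-fold lower.

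Genes with at least 200 UMIs in members, apart from cdx4 and eve1 themselves, were ranked by the library ratio nearer to 0. The ligand gene dld ranked highest on the cdx4 and eve1 side. It was at 197 CPM with and 47.8 CPM without in MZwnt11/slb, and at 322 and 94.0 CPM in wild type, log2 ratios of 2.05 (1.71 to 2.40) and 1.78 (1.49 to 2.08). nrarpa, a feedback gene of Notch, was higher by 1.77 and 1.54, and tbxta by 1.35 and 1.22. The forkhead gene foxd5 (1.33 and 1.22), prickle1b of planar polarity (1.14 and 1.60), rasgef1ba, a Ras exchange factor gene (1.25 and 1.10), and id1, a target of BMP (1.08 and 1.54), followed. The ventral repressor ved, at 0.98 and 1.04, passed 2-fold in wild type alone.

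On the other side, ripply1 ranked lowest among the same genes. It was at 127 CPM without and 30.6 CPM with in MZwnt11/slb, and at 192 and 51.8 CPM in wild type, log2 ratios of with over without of -2.05 (-2.42 to -1.69) and -1.89 (-2.20 to -1.58). The head homeobox gene otx2a (-1.64 and -2.05), the BMP antagonist gene chrd (-1.61 and -1.87) and foxa3 (-1.60 and -2.12) followed. has2, the hyaluronan synthase gene (-1.03 and -1.19), and foxa (-1.03 and -0.99) were on the same side. aldh1a2 did not separate them, at 0.00 (-0.16 to 0.16) and -0.06 (-0.26 to 0.14), nor did osr1, at 0.23 (-0.01 to 0.48) and 0.15 (-0.07 to 0.37). msgn1 itself was 0.46 and 0.38 lower on the log2 scale with cdx4 or eve1.

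**Figure D4:**
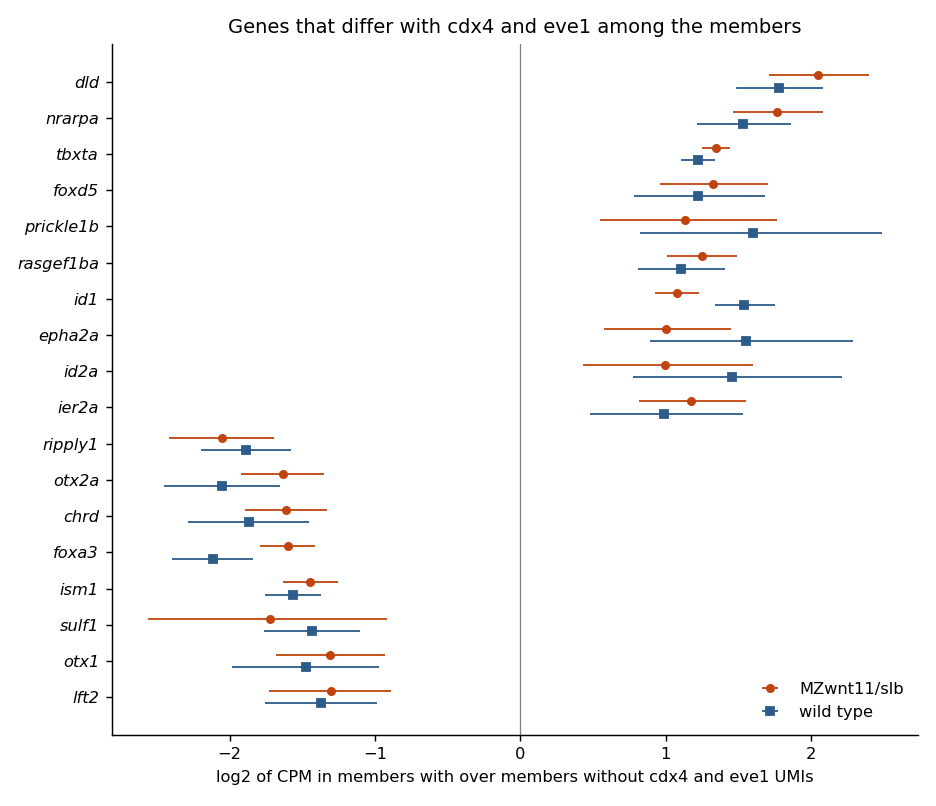
Log2 ratio of CPM in members with over members without a cdx4 or eve1 UMI (x axis) for 18 genes (y axis), in MZwnt11/slb (circles) and wild type (squares), with 95% counting intervals. dld, nrarpa and tbxta lie to the right in both libraries, and ripply1, otx2a, chrd and foxa3 to the left.

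The last comparison set members of MZwnt11/slb against members of wild type. Of the 6111 genes, 252 (4.12%) were at least 2-fold higher in MZwnt11/slb members and 310 (5.07%) at least 2-fold lower, with a median log2 ratio of 0.00. No paraxial list gene passed 2-fold in either direction, and the list's median was -0.40, beside -0.05 in other barcodes. No list had more than 2 genes past 2-fold in 1 direction, and list medians ran between -0.59 for the enveloping layer and 0.30 for neural and epiblast genes. The identifiers with the most extreme ratios were present in 1 library and nearly missing from the other, in members and, but for rnft2 (319 and 45 UMIs), in other barcodes too. rrm2, a subunit gene of ribonucleotide reductase, had 2 identifiers, 1 at 1014 CPM in MZwnt11/slb against 3.28 CPM in wild type and the other at 2.76 against 750 CPM. The symbol was thus well covered in both libraries, and 1 identifier counted among the 252 and the other among the 310. si:ch211-114n24.6 had 3014 UMIs in MZwnt11/slb members and 5 in wild-type members. BX511067.1, olfcg2, FP102809.1, rnft2, si:ch211-57b15.1 and serpini1 followed with 128 to 679 UMIs in MZwnt11/slb and 0 to 4 in wild type. The lowest, SLC7A1, ftr90, znf1063, rnps1, znf1156, si:dkey-46g23.2 and fthl30, had 0 to 5 UMIs in MZwnt11/slb and 139 to 344 in wild type.

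wnt11f2, the gene of the slb locus, was at 97.6 CPM in MZwnt11/slb members and 346 CPM in wild-type members, a log2 ratio of -1.83 (-1.98 to -1.67), beside -1.04 (-1.15 to -0.94) in other barcodes. A count of 3′ ends does not read the mutated base and so does not check the genotype. In wild type the gene was enriched in members over other barcodes by 2.30, and in MZwnt11/slb by 1.52. fzd7a, a receptor gene of the same pathway, was lower in MZwnt11/slb members by 0.85 on the log2 scale and in other barcodes by 0.77, while its paralog fzd7b was at 0.04 in members. vangl2, a core planar polarity gene, was at -0.08.

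Of the mesp pair, mespaa had the larger difference between the libraries. It was at -2.05 in members, beside -0.30 (-0.40 to -0.21) for mespab, with the caution that both helped to choose the members. When members were chosen by at least 2 msgn1 UMIs alone (814 in MZwnt11/slb and 797 in wild type), mespaa was at 98.2 CPM in MZwnt11/slb and 415 CPM in wild type, a log2 ratio of -2.08 (-2.24 to -1.92). mespab was at -0.32 (-0.43 to -0.22) in the same barcodes. At an equal depth of 2944 UMIs a mespaa UMI was found in 19.5% (16.8 to 22.5%) of 775 MZwnt11/slb members and 57.3% (53.5 to 61.0%) of 681 wild-type members, and without thinning in 29.3% and 64.2%. In keratin-rich barcodes, which should lack the gene, the thinned shares were 1.17% (median of 5890 UMIs before thinning) and 1.88% (5319). In other barcodes mespaa was at 3.26 CPM in MZwnt11/slb against 11.3 CPM in wild type, so the difference was not limited to members. mespaa and mespab are close paralogs, and the effect of reads that match both genes on these counts was not tested.

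lft1 had the largest difference among the listed signalling genes, with 26 UMIs (5.53 CPM) in MZwnt11/slb members and 914 UMIs (231 CPM) in wild-type members. The log2 ratio was -5.38 (-6.01 to -4.82) in members and -4.72 (-5.64 to -3.93) in other barcodes. Other barcodes held 13 UMIs in MZwnt11/slb and 324 in wild type, so the difference was not limited to members. The most extreme identifiers above were likewise nearly missing from 1 library, and the effect of read assignment on the lft1 counts was not tested. A thinned UMI was found in 1.42% of MZwnt11/slb members and 42.0% of wild-type members. The other antagonist gene, lft2, was at 42.7 CPM in MZwnt11/slb members against 57.8 CPM in wild-type members, while in other barcodes it was 0.85 higher in MZwnt11/slb. The ligand genes ndr1 (-0.15) and ndr2 (0.18) and the target fscn1a (-0.03) were near 0 in members.

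**Figure D5:**
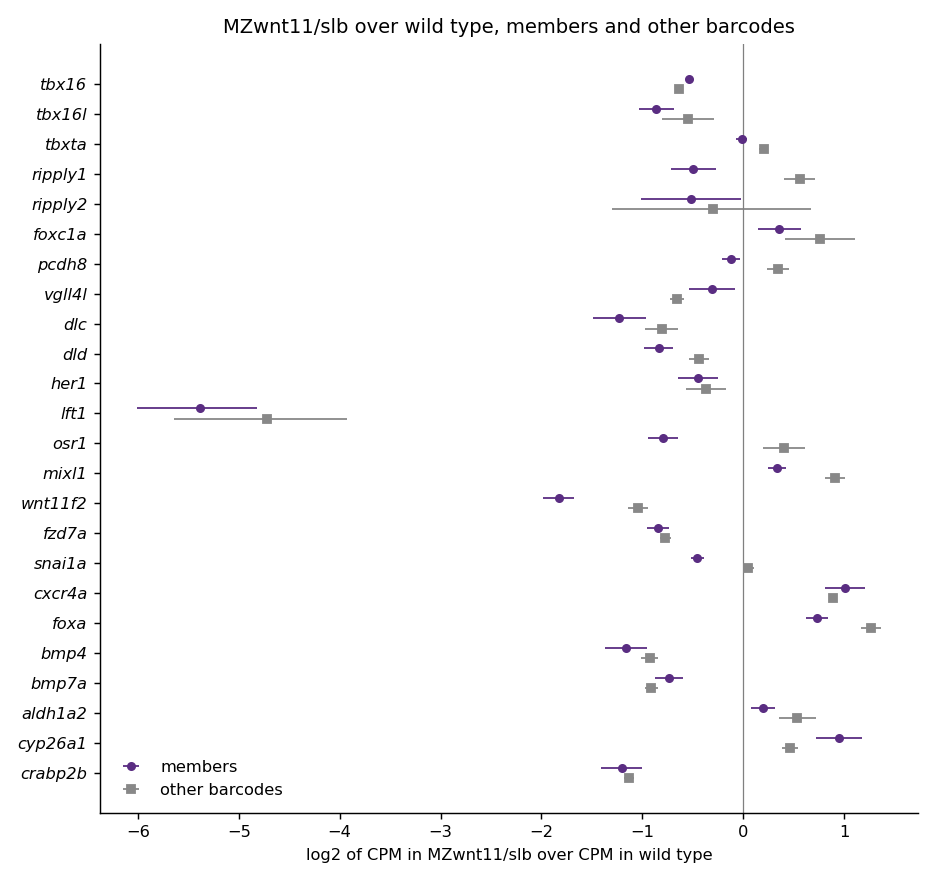
Log2 ratio of CPM in MZwnt11/slb over wild type (x axis) for 24 genes (y axis), in members (circles) and in other barcodes (squares), with 95% counting intervals. lft1 lies far to the left in both, and osr1, ripply1 and pcdh8 lie left of 0 in members and right of it in other barcodes.

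Some mesodermal genes were lower in MZwnt11/slb members and not in its other barcodes, and they are named here after their values were seen. osr1 was at 132 CPM in MZwnt11/slb members and 229 CPM in wild-type members, a log2 ratio of -0.79 (-0.94 to -0.64), beside 0.40 (0.20 to 0.61) in other barcodes. ripply1 was at -0.49 (-0.72 to -0.27) beside 0.56 (0.40 to 0.72), and gata5 at -0.34 (-0.47 to -0.20) beside 0.48 (0.35 to 0.61). pcdh8 was at -0.12 (-0.21 to -0.03) beside 0.34 (0.24 to 0.45). snai1a was at 711 CPM in MZwnt11/slb members and 974 CPM in wild-type members, -0.46 (-0.52 to -0.39), beside 0.05 (-0.00 to 0.10) in other barcodes, an interval that included 0. The difference between members and other barcodes was not tested. The other barcodes held a larger share of gsc and sox32 barcodes in MZwnt11/slb, where 5.09% and 5.03% of all barcodes met those marks, against 2.55% and 3.64% in wild type, and the part of that in these ratios was not tested.

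Of 13 Delta, Notch and clock genes 1, the ligand gene dlc, was at least 2-fold lower in MZwnt11/slb members. Over all 6111 genes that share was 5.07%, so 1 gene in a list of this size is near it. The median of this list, which included tbx16, was -0.37, beside -0.10 in other barcodes. The ligand genes dlc (-1.23) and dld (-0.84) were lower, the receptor gene notch1a was higher at 0.32 (0.23 to 0.41), and hes6, a bHLH repressor gene, was at -0.06 (-0.15 to 0.03). Of the T-box genes, tbx16 was at -0.53 (-0.57 to -0.50), tbx16l at -0.86 (-1.04 to -0.69) and tbxta at -0.02 (-0.07 to 0.04). Other barcodes were at -0.63 for tbx16, -0.55 for tbx16l, 0.20 for tbxta, -0.44 for dld, -0.81 for dlc and 0.43 for notch1a. foxc1a (0.36), mixl1 (0.34) and foxa (0.73) were higher in MZwnt11/slb members, with 0.76, 0.91 and 1.27 in other barcodes.

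Of 13 BMP genes 2, bmp4 and szl, were at least 2-fold lower in MZwnt11/slb members and none was that much higher, with a list median of -0.13, beside -0.17 in other barcodes. Of 8 retinoic acid genes 1 was that much higher and 1 lower, with a median of 0.05, beside 0.24 in other barcodes. Over all 6111 genes 4.12% were that much higher and 5.07% that much lower, so counts this small are not read as results about the lists. Of the best covered BMP genes, ved was at -0.59 (-0.66 to -0.52) in members, beside -0.31 in other barcodes. Others were nearer to 0 in members, with id1 at -0.05, vox at -0.13 and bambia at -0.20. bmp4, bmp7a, bmp2b, szl, cyp26a1, dhrs3b and drll.1 are named after their values were seen. The BMP ligand genes bmp4 (-1.16) and bmp7a (-0.74) and szl, a secreted feedback regulator (-3.16, from 51 and 384 UMIs), were lower in MZwnt11/slb members, with -0.93, -0.91 and -2.28 in other barcodes. bmp2b was at 0.32 in members and -0.44 in other barcodes. cyp26a1, which breaks down retinoic acid, was at 111 CPM in MZwnt11/slb members and 57.3 CPM in wild-type members, a ratio of 0.95 (0.72 to 1.18), beside 0.46 in other barcodes. dhrs3b, which turns retinal back to retinol, was at 2.35 (1.67 to 3.09) from 127 and 21 UMIs. crabp2b, a retinoic acid binding protein gene, was at -1.21 in members and -1.13 in other barcodes, and aldh1a2 at 0.19 and 0.54. drll.1, of the draculin family of zinc finger genes, was at 71.4 CPM in MZwnt11/slb members and 7.58 CPM in wild-type members, a ratio of 3.24 (2.70 to 3.83), beside 1.52 in other barcodes.

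The genotype ratios were also taken on each side of the cdx4 and eve1 split, whose sides held different shares of the members in the libraries. With and without cdx4 or eve1, osr1 was at -0.75 and -0.84, tbx16 at -0.50 and -0.57, snai1a at -0.50 and -0.48, lft1 at -5.23 and -5.69, and mespaa at -2.20 and -1.92. foxa3 differed more, at 1.04 (0.77 to 1.31) with and 0.52 (0.32 to 0.73) without, as did cyp26a1, at 0.81 (0.55 to 1.08) and 1.51 (1.01 to 2.05), and cxcr4a, at 1.18 (0.95 to 1.43) and 0.64 (0.30 to 0.99). drll.1 was at 3.02 and 3.85, szl at -3.25 and -2.55, and wnt11f2 at -1.68 and -2.12. These differences between the sides were not tested. The p53 and stress list had a median ratio of -0.32 in members, beside -0.42 in other barcodes. The median mitochondrial share of a member's UMIs was 5.82% in MZwnt11/slb and 6.27% in wild type.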

How the data were processed

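Cells were dissociated by ACME fixation, sorted on DAPI for singlets and run on 10x 3′ v3.1 chemistry. The authors deposited filtered matrices of raw UMI counts per gene and barcode, 1 per library, made with Cell Ranger (6.1.1 in the submitters' processing notes; the study's methods name a later release) on build GRCz11. The sources used here name neither the annotation release nor the treatment of introns. All deposited barcodes were kept, with totals of 500 to 35814 UMIs each and 40025626 UMIs in MZwnt11/slb and 37370253 in wild type, and no doublet caller was run; an alternative dropped members above the 95th percentile of UMIs.

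Here, UMIs were summed over members and over other barcodes of each library and divided by all UMIs of the same barcodes, giving CPM. Genes needed 100 UMIs in the members of both libraries together. Sums of 0 to 3 were set to 3 before a ratio, and no ratio was taken where both were at or below 3. Intervals are exact conditional Poisson (ratios) and Clopper-Pearson (shares) at 95%. No p-values were computed, since each genotype had 1 library. The calculations were checked on simulated data. Tools were Python 3.11.15, numpy 2.4.6, pandas 2.3.3, scipy 1.17.1 and matplotlib 3.10.9. Names came from the deposited list of 27597 genes.

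The members and 20 gene lists were chosen with earlier results of these data known. Named genes were the 3 selecting genes, the paraxial list, the 15 highest and 8 lowest genes of members over other barcodes, the 8 highest and 8 lowest of MZwnt11/slb over wild type, and the 4 best covered genes of each other list; the selecting, excluding and mitochondrial genes were left out of the rankings. Others named were chosen after their values were seen. Alternatives covered the rule, thinning, scaling, gene minimum, make-up of the members and barcode quality. 1 gene is not reported here.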

Additional observations from a re-analysis of the deposited data

Results flagged for a closer look

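2 listed genes lay on opposite sides of 0 in the libraries when members were compared with other barcodes, with counting intervals that left out 0 in both. cyp26a1, the enzyme that breaks down retinoic acid, was higher in members of MZwnt11/slb (log2 ratio 0.23) and lower in members of wild type (-0.25). aurka, a mitotic kinase gene, was at 0.15 in MZwnt11/slb and -0.14 in wild type. Neither difference between the libraries was tested.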

How the results depend on the processing

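The share of members in MZwnt11/slb and wild type was 16.8% and 16.5% with at least 1 UMI of the selecting genes, 10.4% and 9.51% with at least 3, and 16.4% and 14.1% with no exclusion. With the rule applied again to counts thinned to 2944 UMIs, and shallower barcodes left out, the wild-type share was 9.85%. Of genes at least 2-fold lower in members than in other barcodes (96), there were 41 when the others had to pass the exclusions, 49 after thinning, 176 with a gene minimum of 50 UMIs and 54 with 200; the count of higher genes (150) stayed between 121 and 175. Of genes 2-fold higher (252) or lower (310) in MZwnt11/slb members, thinning left 130 and 160, a minimum of 50 UMIs gave 393 and 547, and 200 gave 128 and 143. Thinning and a higher minimum leave fewer genes to compare, and a lower minimum leaves more. These are counts and not shares, so they do not show whether the called share changed.

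With other barcodes held to the same exclusions, the ratio of members over others in MZwnt11/slb and wild type turned to 0.24 and 0.23 for cldne, 0.19 and 0.36 for krt18a.1, 0.11 and 0.14 for krt4, 0.21 and 0.26 for krt8, 0.0096 and 0.12 for zgc:193505, and 2.22 and 1.84 for sox32. It turned to 0.70 for dnase1l4.1 and 0.20 for mid1ip1a in MZwnt11/slb alone, to 0.25 for chrd in wild type alone, and to 0.20 and 0.25 for the enveloping layer median. Against all other barcodes the ratios had been -5.46 and -4.77 for cldne, -4.66 and -4.30 for krt18a.1, and -5.36 and -5.33 for krt4. They were -5.17 and -4.76 for krt8, -5.54 and -5.12 for zgc:193505, and -2.19 and -1.98 for sox32. In MZwnt11/slb they were -3.81 for dnase1l4.1 and -4.585 for mid1ip1a. The lowest genes also included krt92 (-6.13 and -6.17) and si:ch211-125o16.4 (-4.865 and -4.62).

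Over 11 alternatives, the ratio of MZwnt11/slb over wild-type members lay between -5.70 and -5.17 for lft1, -2.12 and -1.88 for mespaa, -0.82 and -0.71 for osr1, -0.55 and -0.47 for tbx16, and 3.13 and 3.57 for drll.1. No named gene past 2-fold in that comparison changed sign. Choosing members by msgn1 alone or by the mesp genes alone, and setting cdx4 and eve1 make-up to wild type, were added after the data were seen. No paired analysis was possible because each genotype had 1 library.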
